A study of Mus musculus with 2 samples.

Results

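The genes of insulin, insulin-like growth factor (IGF) and neuregulin signalling were followed through the EP300 peaks of the newborn mouse heart. The set holds 10 genes: the receptors Insr and Igf1r, their adaptors Irs1 and Irs2, the ligands Igf1 and Igf2, the IGF2 scavenger receptor Igf2r, the neuregulin receptors Erbb2 and Erbb4, and the neuregulin gene Nrg1. A peak was taken as a member when its summit, the point of highest signal, lay within 100 kb of a transcription start site (TSS) of such a gene and nearer to it than to any other protein-coding TSS. This gave 26 peaks of the 15570 that could be assigned to a protein-coding gene, out of 17339 on the main chromosomes. Proximity is a rule of distance and no measured link to the gene.

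EP300, an acetyltransferase that transcription factors bring to enhancers and promoters, was mapped by ChIP-seq (immunoprecipitation of bound chromatin followed by sequencing) in whole heart tissue of B6NCrl mice at postnatal day 0. There was 1 group with 2 replicates, no treatment and no mutant, so levels are described and no groups are compared. The labels number them as biological replicates 1 and 2 but give both the same biosample and donor. Whether they are biological replicates is therefore unclear, and the spread between them may be technical. The peaks come from the optimal list of the irreproducible discovery rate (IDR), a method that keeps peaks whose ranks agree between lists.

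Insulin and the IGFs bind receptor tyrosine kinases that phosphorylate the IRS adaptors, which in turn recruit PI3 kinase and switch on AKT. IGF2R has no kinase activity: it carries IGF2 and lysosomal enzymes to the lysosome, and in the mouse its gene is imprinted, with the overlapping non-coding RNA Airn silencing the paternal copy. Neuregulin 1, made by the endocardium, acts on the ERBB4 and ERBB2 receptors of cardiomyocytes and is required for the trabeculae of the developing heart.

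Of the 10 genes, 5 carried a peak, and these were all receptors or adaptors of the insulin and IGF branch. Igf2r had 12 peaks, Insr 6, Irs2 4, and Igf1r and Irs1 2 each. Igf1, Igf2, Erbb2, Erbb4 and Nrg1 had none under the rule. The share of genes with a peak was 50% (5 of 10; 95% exact interval 18.7% to 81.3%), against 31.9% of all 21829 protein-coding genes. That background lies inside the interval, so the set as a whole did not stand apart at this number of genes. Here and below the exact (Clopper-Pearson) intervals cover counting error only, and neighbouring peaks of a gene are not independent.

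The DNA under the strongest peak of each of the 5 genes is shown first, since the results by gene turn on them, together with a second intronic peak of Insr that holds a forkhead match. Each run is 200 bp centred on the summit, plus strand of mm10 (GRCm38), 5′ to 3′. Capitals mark matches, on either strand, to 1 of the 12 motifs described further on. None of the 6 windows overlaps an exon.

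Igf2r upstream, chr17:12790723-12790922: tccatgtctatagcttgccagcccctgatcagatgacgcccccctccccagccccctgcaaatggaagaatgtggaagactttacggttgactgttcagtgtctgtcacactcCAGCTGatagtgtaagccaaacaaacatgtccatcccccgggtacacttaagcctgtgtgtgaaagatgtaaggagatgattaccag
Insr intron, chr8:3187595-3187794: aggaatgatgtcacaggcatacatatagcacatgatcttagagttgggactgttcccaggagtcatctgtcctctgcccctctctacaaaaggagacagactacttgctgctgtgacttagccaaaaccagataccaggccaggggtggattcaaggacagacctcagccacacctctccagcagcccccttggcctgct
Igf1r intron, chr7:68010322-68010521: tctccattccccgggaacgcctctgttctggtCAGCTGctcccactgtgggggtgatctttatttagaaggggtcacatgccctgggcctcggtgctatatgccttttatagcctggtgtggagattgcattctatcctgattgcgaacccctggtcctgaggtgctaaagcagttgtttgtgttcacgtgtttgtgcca
Irs2 downstream, chr8:10946142-10946341: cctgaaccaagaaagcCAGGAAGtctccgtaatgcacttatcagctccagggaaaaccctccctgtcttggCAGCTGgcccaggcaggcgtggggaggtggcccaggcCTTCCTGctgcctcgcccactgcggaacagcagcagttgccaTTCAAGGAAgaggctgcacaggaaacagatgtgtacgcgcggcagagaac
Irs1 intron, chr1:82281947-82282146: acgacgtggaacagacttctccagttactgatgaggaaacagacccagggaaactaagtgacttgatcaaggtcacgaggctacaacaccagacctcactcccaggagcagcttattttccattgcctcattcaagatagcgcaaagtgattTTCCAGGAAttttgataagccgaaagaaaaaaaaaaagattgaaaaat
Insr second intronic peak, chr8:3230757-3230956: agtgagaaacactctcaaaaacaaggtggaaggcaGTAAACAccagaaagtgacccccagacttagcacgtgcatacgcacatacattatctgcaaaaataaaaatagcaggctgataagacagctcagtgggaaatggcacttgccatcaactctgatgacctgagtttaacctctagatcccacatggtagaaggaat

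The strongest window, upstream of Igf2r, holds the E-box CAGCTG, and the same 6 letters stand in the windows of Igf1r and Irs2. The Irs2 window also holds the ETS letters CAGGAAG and their reverse complement, and the STAT form TTCAAGGAA. Irs1 holds the STAT form TTCCAGGAA. The strongest Insr window holds no match to any motif searched, whereas the second Insr window holds the forkhead letters GTAAACA.

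Insr, which encodes the insulin receptor (chromosome 8, 3122061 to 3279617, minus strand), carried peaks at its promoter and through its introns. The strongest lay in an intron (chr8:3187447-3187942), 91922 bp from the 5′ end of the gene and 5022 bp from a second annotated TSS of Insr. Its signal, the authors' value for the strength of a peak, was 93.1 in the pooled reads, rank 494 of the optimal list. It was found at similar ranks in both libraries, with signal 57.7 (rank 393) in replicate 1 and 43.8 (rank 441) in replicate 2.

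The second intronic Insr peak (chr8:3230609-3231104), 48760 bp inside the gene, had signal 52.8. It too stood at near equal ranks, 2744 in replicate 1 (signal 31.5) and 2821 in replicate 2 (signal 23.8). Another intronic peak (chr8:3237199-3237694), 42170 bp inside, had signal 45.0. Here the libraries differed, with rank 3159 (signal 29.7) in replicate 1 and rank 20277 (signal 9.94) in replicate 2. The promoter peak of Insr (chr8:3279387-3279882), whose summit lay 18 bp upstream of the TSS, had signal 44.3. It stood at rank 2127 (signal 34.5) in replicate 1 and rank 18689 (signal 10.3) in replicate 2. In replicate 1 the insulin receptor promoter outranked these last 2 intronic peaks, and in replicate 2 it fell below the peak at 48760 bp. The remaining 2 Insr peaks, also intronic, had signals of 36.7 and 27.9.

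Igf1r, the receptor for both IGFs (chromosome 7, 67952827 to 68233668, plus strand), had 1 intronic and 1 upstream peak. The intronic peak (chr7:68010174-68010669), 57595 bp inside the gene, had signal 73.8 and rank 1110. It stood high in both libraries, at rank 1181 (signal 42.5) in replicate 1 and rank 884 (signal 35.6) in replicate 2. The peak 1744 bp upstream of the TSS (chr7:67950835-67951330) had signal 38.0. It was at rank 3603 (signal 28.3) in replicate 1 and rank 31833 (signal 8.36) in replicate 2. A stronger replicate 2 call, of rank 13484 (signal 11.98), lay 288 bp from the summit, outside the width of the peak. By either call the upstream site was weaker than the intronic one in the second library.

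Another 4 optimal peaks lay inside introns of Igf1r, between 176353 and 187395 bp from its start, and were left out because no protein-coding TSS stood within 100 kb of them. The strongest of these had signal 55.3, with rank 1158 in replicate 1 (signal 42.8) and rank 47772 in replicate 2 (signal 7.34). Only the peak at 187395 bp, of signal 30.3, was among the leading peaks of both libraries. For comparison at the limit, the farthest peak kept in the set lay 90246 bp upstream of Irs2, and the nearest one beyond the limit among those inside the 10 genes lay 124011 bp from a TSS. By body rather than by distance, Igf1r thus held 5 peaks, as many as Insr. The Igf1r calls at 177266 and 177575 bp overlap each other, however, and neither had a replicate 2 summit inside its width.

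Irs1, the first insulin receptor substrate (chromosome 1, 82233101 to 82291416, minus strand), had a promoter and an intronic peak. The intronic peak (chr1:82281799-82282294), 9369 bp inside, had signal 43.3, with rank 6835 (signal 21.6) in replicate 1 and rank 4548 (signal 19.6) in replicate 2. The promoter peak (chr1:82291252-82291747), 84 bp upstream of the TSS, had signal 28.0, with rank 5553 (signal 23.6) in replicate 1 and rank 38512 (signal 7.84) in replicate 2. Replicate 1 put the promoter above the intron and replicate 2 did the reverse. The strongest EP300 peak inside Irs1 is not in the set: it lay 51836 bp into the gene with signal 73.7, rank 1114, and the nearest TSS, 6468 bp away, is that of Gm9747. That site was found in both libraries, at rank 1082 in replicate 1 (signal 43.6) and rank 2035 in replicate 2 (signal 26.8).

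Irs2, the second substrate (chromosome 8, 10984681 to 11008458, minus strand), had no peak inside the gene. Its strongest (chr8:10945994-10946489) lay 62216 bp from the start, beyond the 3′ end, within the non-coding gene Gm44955. It had signal 62.7, with rank 2554 (signal 32.2) in replicate 1 and rank 892 (signal 35.5) in replicate 2. The promoter peak of Irs2, 630 bp upstream, had signal 35.4 and stood at rank 7473 (signal 20.7) in replicate 1 and rank 3740 (signal 21.3) in replicate 2. Unlike those of Insr and Irs1, this promoter peak was among the leading peaks of both libraries. The other 2 peaks, 46312 bp downstream of the start and 90246 bp upstream, had signals of 31.1 and 33.1.

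Igf2r, the clearance receptor (chromosome 17, 12682406 to 12769664, minus strand), carried the densest set. Of its 12 peaks, 7 lay upstream and 5 inside the gene, none within 1 kb of the TSS, and 8 of the 12 lay inside the transcription unit of Airn. Igf2r was among 51 protein-coding genes, or 0.234%, with at least 12 peaks, where 423 genes (1.94%) had at least the 6 of Insr and 1077 (4.93%) at least the 4 of Irs2. Inside the gene, 4 of the peaks are 2 pairs of overlapping calls, so the 12 peaks mark 10 sites. When TSSs of non-coding genes also counted, 1 of the 12 was still nearest to Igf2r and the other 11 were nearer to Airn or to other non-coding genes.

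A group of 5 Igf2r peaks lay 21159 to 28123 bp upstream of the TSS. Its strongest (chr17:12790575-12791070), the one printed above, had signal 97.5 and rank 414, the highest of all 26. In replicate 1 the strongest summit under it had rank 478 (signal 54.7) and lay 112 bp away, and in replicate 2 it had rank 123 (signal 61.6) and lay 27 bp away. Both libraries therefore placed a strong peak there. The offset of 112 bp passes the 100 bp allowed for a shared summit, so this peak is not counted as shared below. It is also missing from the conservative IDR list. Its summit lay inside the non-coding gene CT030636.1, 837 bp from a TSS of that gene. The peak of the group at 22009 bp lay 13 bp from a TSS of CT030636.1. Whether these 2 peaks belong to Igf2r or to the non-coding gene was not tested.

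The other strong upstream peaks of Igf2r had signals of 53.7 at 28123 bp (chr17:12797539-12798034) and 47.6 at 24556 bp (chr17:12793972-12794467). The first stood at rank 1635 (signal 37.8) in replicate 1 and 6511 (signal 16.8) in replicate 2, and the second at rank 2954 (signal 30.5) and 1639 (signal 28.9). Inside the gene the strongest peak (chr17:12759617-12760112), 9799 bp from the TSS and within Airn, had signal 56.2. Its ranks were 2896 (signal 30.8) and 1581 (signal 29.3), so each of these 3 sites was held by both libraries. Peaks of the 2 alleles cannot be told apart in these lists.

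Both promoters of the imprinted pair were absent from the optimal list but not from the data. The conservative list holds a peak 14 bp upstream of the Igf2r TSS with signal 22.2, and another 40 bp from the start of Airn, 28313 bp inside Igf2r, with signal 26.9. The Igf2r promoter was at rank 6360 (signal 17.0) in replicate 2 but 24698 (signal 11.0) in replicate 1, outside its leading peaks. The Airn start was at rank 8896 (signal 18.99) in replicate 1, and no replicate 2 summit lay inside the width of that peak. The call nearest each start was thus led by 1 library only. A neighbouring conservative peak, 29211 bp inside Igf2r with signal 25.1, was among the leading peaks of both libraries. It stood at rank 16631 (signal 13.6) in replicate 1 and rank 11364 (signal 13.0) in replicate 2. In the pooled signal each of these calls stood below the weakest peak of the upstream group, of signal 28.8.

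**Figure D1:**
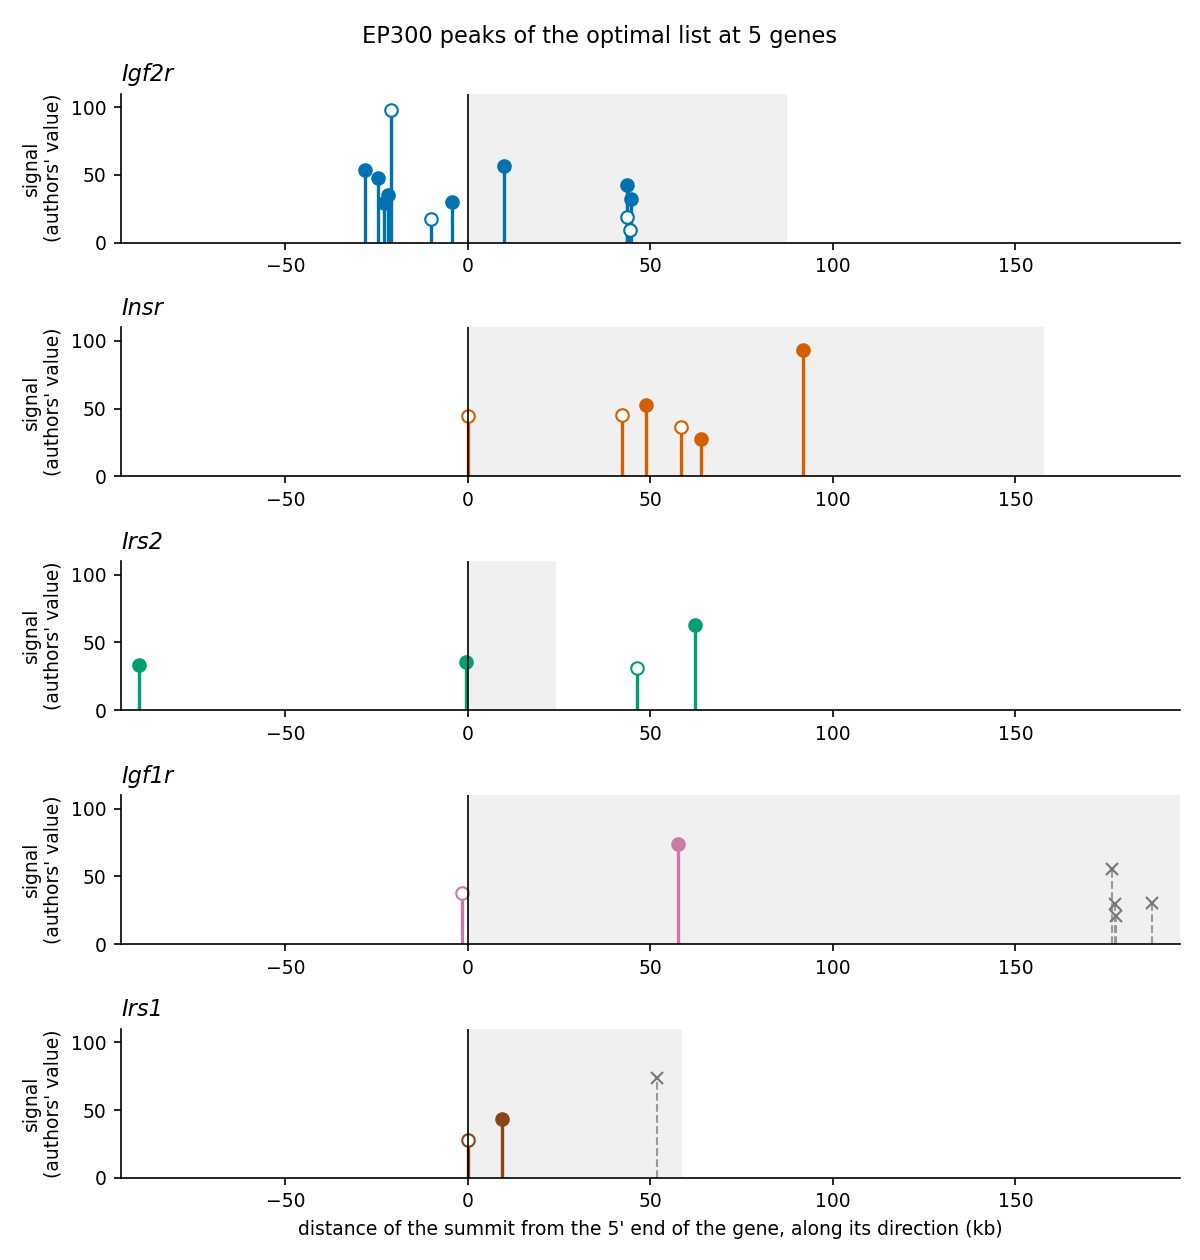
EP300 peaks of the optimal list at the 5 genes with a peak: the horizontal axis is the distance of the summit from the 5′ end of the gene in kb along its direction, the vertical axis the signal in the authors' units, and the grey area the gene (Igf1r runs on beyond the axis). Filled circles are peaks found in both replicates within 100 bp, open circles other members, and crosses peaks inside Igf1r and Irs1 that the distance rule leaves out; the tallest stems are at 97.5 for Igf2r and 93.1 for Insr, far from the gene start.

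The ligands of the branch had no optimal peak within 100 kb of a TSS. For Igf1 the nearest optimal peak was 203753 bp away, but the conservative list held an intronic peak of signal 22.0 at 65955 bp from a TSS. The strongest Igf1 call in replicate 2, 90 bp upstream of a TSS, had rank 6078 (signal 17.3), whereas the strongest in replicate 1, 65963 bp from a TSS, had rank 18915 (signal 12.7). Replicate 2 held 4 leading Igf1 peaks, of which 2 intronic calls overlap each other, and replicate 1 held 0. The leading pooled peaks included a peak 21 bp from an Igf1 TSS, of signal 25.7 and rank 12807. For Igf2, the fetal growth factor of the pair, the nearest optimal peak was 122523 bp away, and its strongest calls stood at rank 17726 (signal 13.2) in replicate 1 and 15795 (signal 11.1) in replicate 2.

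The neuregulin genes had no optimal peak within 100 kb of a TSS either. Nrg1, over its whole length of 1069479 bp and 10 annotated TSSs, had no optimal peak within 730370 bp of a TSS, and its strongest calls were at rank 27873 (signal 10.4) in replicate 1 and 35810 (signal 8.02) in replicate 2. Neither is among the leading peaks of its library. Erbb2 stands in a gene-dense stretch: 7 optimal peaks lay within 100 kb, each nearer to another gene (2 to Pgap3 and 1 each to Ikzf3, Mien1, Ppp1r1b, Stard3 and Tcap), and the closest was 12093 bp away. The Erbb2 promoter was called 56 bp upstream of the TSS in replicate 1, at rank 14209 (signal 14.8), while the strongest Erbb2 call in replicate 2 had rank 130173 (signal 5.43).

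Erbb4, the receptor that binds neuregulin itself, had 1 optimal peak inside an intron, 134120 bp from its start and beyond the 100 kb limit. It had signal 43.5 and rank 4370, with rank 5602 (signal 23.5) in replicate 1 and rank 6528 (signal 16.8) in replicate 2. The gene thus counts as unbound by the rule although both libraries held a peak in its body. A call far down the ranking says that nothing stood out at this depth, which the files do not give, and not that EP300 was absent.

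**Figure D2:**
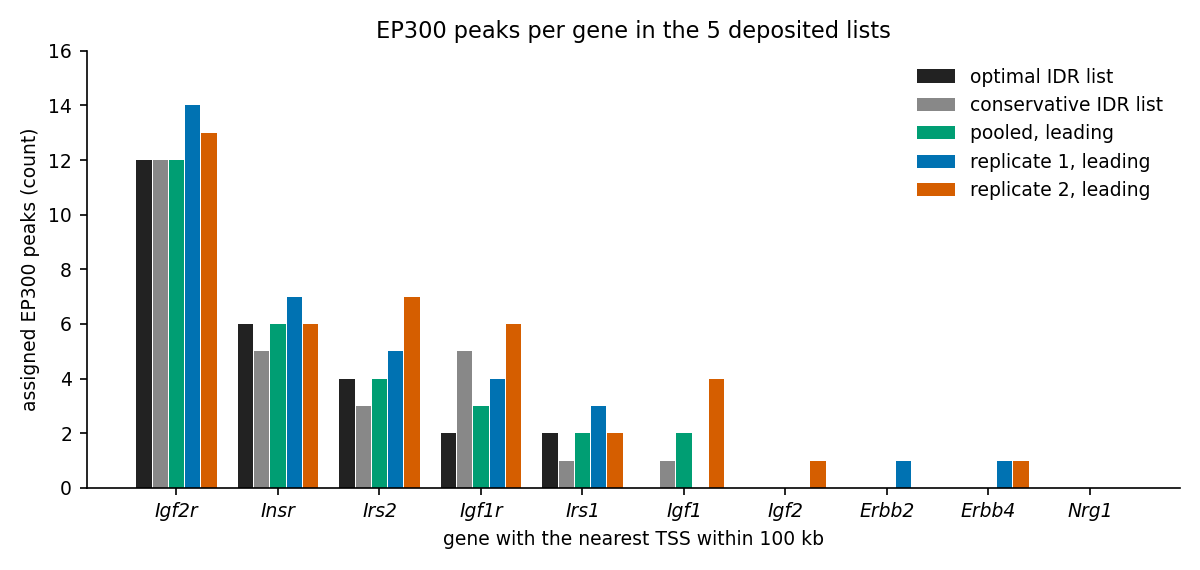
Number of EP300 peaks assigned to each of the 10 genes (vertical axis, count) in the optimal and conservative IDR lists and in the 17372 peaks of highest signal of the pooled, replicate 1 and replicate 2 lists. Igf2r has 12 to 14 peaks in every list, Insr 5 to 7 and Nrg1 0, while Igf1 ranges from 0 in replicate 1 to 4 in replicate 2.

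The order of the genes by their strongest peak was largely shared by the libraries. In the pooled signal it ran Igf2r (97.5), Insr (93.1), Igf1r (73.8), Irs2 (62.7) and Irs1 (43.3). Replicate 1 put Insr (57.7) above Igf2r (54.7), and replicate 2 put Igf2r (61.6) above Insr (43.8). Their order is therefore not fixed by these data. Igf1r and Irs2 were level in replicate 2 (35.6 and 35.5) but apart in replicate 1 (42.5 and 32.2).

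Among the 26 peaks, 16 had a leading summit of both replicates within 100 bp, where leading means the 17372 peaks of highest signal, as many as the optimal list holds. The share was 61.5% (40.6% to 79.8%) against 40.2% of all assigned peaks. By library, 22 (84.6%) were found in replicate 1, against 65.2%, and 18 (69.2%) in replicate 2, against 55.2%. The conservative list overlapped 21 of the 26 (80.8%), against 73.8%, and 22 had a deposited −log10 q of at least 2 (84.6%), against 57.5%. By gene, the shared peaks were 8 of 12 for Igf2r, 3 of 6 for Insr, 3 of 4 for Irs2, and 1 of 2 for both Igf1r and Irs1. The optimal list was itself made from these libraries, so these shares are descriptions of the peaks and no independent check. Across the 25 members with a summit in both full lists, the signals of the 2 libraries had a Spearman rho of 0.35, against 0.47 across 13440 assigned peaks. In the 2 pairs of overlapping Igf2r calls both calls carry the same replicate values, so these values are repeated in the rho. Such repeats also occur among all assigned peaks.

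The peaks without a leading replicate 2 summit within 100 bp took in 4 of the 5 that were richest in G and C. Of the 26 windows, 5 had at least 65% GC, a threshold chosen after the values were seen: the promoters of Insr (69.5%), Irs1 (69.5%) and Irs2 (78.0%), the site upstream of Igf1r (73.0%) and an Insr intron (67.5%). All 5 had a leading replicate 1 summit within 100 bp, but only that of Irs2 had one in replicate 2. At the site upstream of Igf1r, a leading replicate 2 summit (rank 13484) lay 288 bp away. Over all assigned peaks of at least 65% GC, 69.5% were leading in replicate 1 and 45.9% in replicate 2. Below 65% GC, 17 of 21 members were leading in replicate 1 and 17 of 21 in replicate 2, against 64.3% and 57.1% of all such peaks. Replicate 1 was called against 2 control files and replicate 2 against 1. The part of base composition or of the controls in these differences was not tested.

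**Figure D3:**
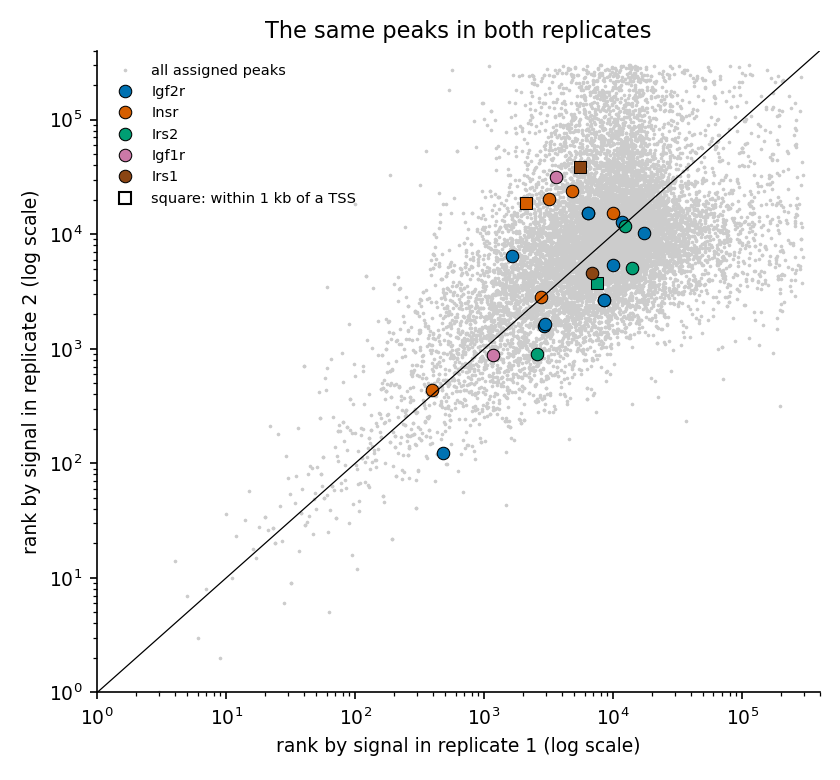
Rank by signal of each peak in replicate 1 (horizontal, log scale) and replicate 2 (vertical, log scale), low ranks being strong peaks: grey points are all assigned peaks with a summit in both lists, coloured symbols the 25 such members by gene, squares those within 1 kb of a TSS, and the line marks equal ranks. The strongest Insr and Igf2r peaks lie at the lower left, and the promoters of Insr and Irs1 lie far above the line, at ranks 18689 and 38512 in replicate 2. Overlapping Igf2r calls with the same replicate summits fall on the same point.

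Few of the member peaks lay at promoters of protein-coding genes. Non-coding TSSs do not count here, although the strongest Igf2r peak lay 837 bp from that of CT030636.1. Within 1 kb of a TSS were 3 of 26 (11.5%, 2.45% to 30.2%), against 37.3% of all assigned peaks, and the median distance to the TSS was 23810 bp, against 5260 bp. At the level of genes, 3 of 10 (Insr, Irs1 and Irs2) had such a promoter peak, or 30% (6.67% to 65.2%), against 19%. By annotation, 11 summits lay in introns, 1 in a coding exon of Igf2r and 14 outside protein-coding genes, of which 9 lay inside a non-coding gene. The median signal was 37.3, against 30.6 for all assigned peaks, with a range from 8.87 to 97.5.

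The density of peaks rested on Igf2r. Counted over the bases nearer to a member's TSS than to any other gene's, the set held 14.97 peaks per Mb, against 9.72 for all protein-coding genes. Igf2r alone stood at 139.3 per Mb over 86146 bp, followed by Irs1 at 48.0, Insr at 26.8, Irs2 at 20 and Igf1r at 10.2. Without Igf2r the set held 14 peaks and 8.48 per Mb, below the overall density. The median distance to the TSS was 25786 bp over the other 14 peaks. The 3 peaks within 1 kb are all among these, or 21.4% (4.66% to 50.8%), below the background of 37.3%, which the interval holds. With 14 peaks, this interval is too wide to tell whether the low promoter share of the set rested on Igf2r.

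Motifs were searched in the 200 bp windows on both strands, with the letters CAGCTG for the E-box, CAGGAAG for ETS factors, GTAAACA for forkhead factors, TTCNNNGAA for STAT factors, GGAATGT for TEAD factors, GGGCGG for KLF and SP factors, AGATAAG for GATA factors, TGACGTCA for the CRE and TGANTCA for AP-1, and by name for MEF2, the CArG box and the glucocorticoid response element. STAT and ETS matches can share letters, as they do in 1 Igf2r window. A match is a description of the sequence and no measured site.

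E-boxes and ETS letters were the commonest. An E-box stood in 9 of 26 windows (34.6%, 17.2% to 55.7%), against 17.3% of all assigned peaks. Its matches were spread over 4 genes, with 4 of 12 Igf2r windows, 2 of 6 of Insr, 2 of 4 of Irs2 and 1 of 2 of Igf1r. ETS letters also stood in 9 windows (34.6%), against 15.5%, but 7 of them belong to Igf2r and 1 each to Insr and Irs2. In the pooled list the ETS share was 20.7%, against 16.4%, and in 100 bp windows the E-box share was 15.4%, against 9.27%. For the E-box the background of 17.3% lay at the lower end of the interval, and ETS matches came mainly from 1 gene with neighbouring calls.

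Forkhead letters stood in 4 windows (15.4%, 4.36% to 34.9%), against 2.98%. The share was 5% in the leading peaks of replicate 2 (3.20% of all its assigned peaks), and 3.85% in 100 bp windows (1.54%). The 4 windows belong to the Insr promoter, the Insr intron printed above and 2 weaker Igf2r peaks upstream. The matches of the Insr promoter and intron lay 79 and 62 bp from their summits, so both fell outside the 100 bp windows. FOXO proteins, the forkhead factors that AKT keeps out of the nucleus, are known regulators of the insulin receptor gene. Irs2, which they also regulate, had the letters in none of its 4 windows. STAT forms stood in 5 windows (19.2%, 6.55% to 39.4%), against 6.58%, of which 2 belong to Irs2, 2 to Igf2r and 1 to Irs1. In the leading peaks of replicate 1 the STAT share was 8.57%, against 6.20%.

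KLF and SP letters were in 3 windows (11.5%, 2.45% to 30.2%), against 22.8%, and TEAD letters in 2 (7.69%), against 5.42%. The cardiac motifs were not found: MEF2, GATA and the CArG box each stood in 0 of 26, against 2.21%, 5.06% and 1.42%. The same held for the glucocorticoid response element (2.02%), the CRE (1.12%) and AP-1 (7.07%). A count of 0 of 26 has an exact upper bound of 13.2%, above each of these backgrounds. It says only that these letters are not in these windows.

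**Figure D4:**
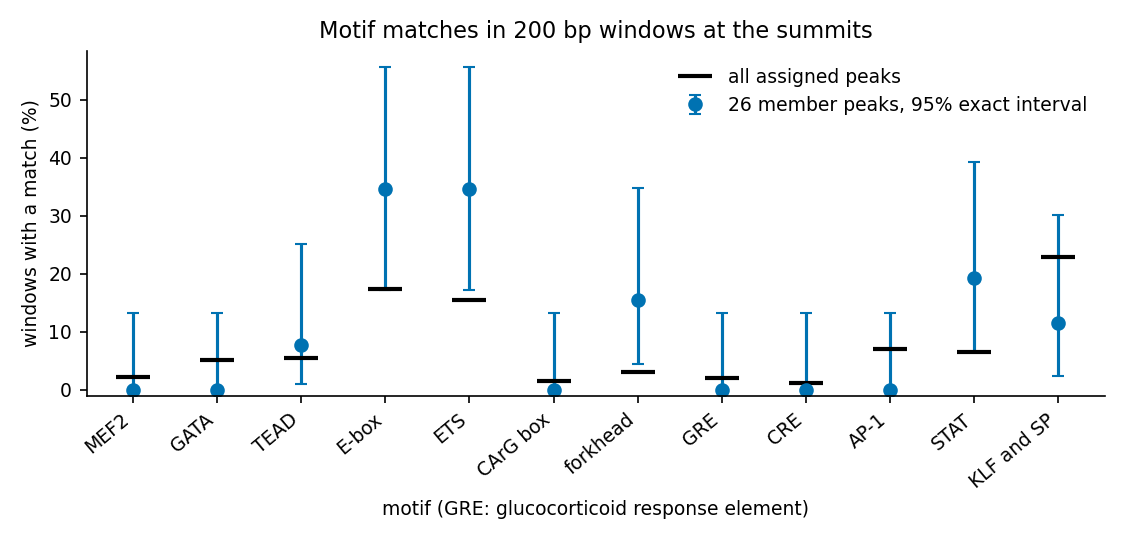
Share of 200 bp windows with a match to each motif (vertical axis, percent): blue points are the 26 member peaks with 95% exact intervals, and black bars the share of all 15570 assigned peaks. The E-box and ETS points are both at 34.6%, above bars at 17.3% and 15.5%, while 6 motifs have no match among the members.

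The rest of the pathway was read from 61 further genes, all found in the annotation. Of these, 34 carried a peak (55.7%, 42.4% to 68.5%), against the 31.9% of all genes, and 16 a promoter peak (26.2%, 15.8% to 39.1%), against 19%. By role, peaks were found at 7 of 9 adaptors, 7 of 9 genes of PI3 kinase and AKT, 9 of 13 outputs such as the FOXO and mTOR genes, and 5 of 8 brakes. They were found at 3 of 11 other ligands, 3 of 8 IGF binding proteins and 0 of 3 other receptors (Egfr, Erbb3 and Insrr). The differences between these small groups were not tested.

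Named by most peaks were Grb10 with 6, an imprinted adaptor that restrains both receptors, and Akt2, Gab1, Pik3r1 and Ptpn1 with 5 each. Akt2 encodes the AKT kinase of insulin-driven glucose uptake, Gab1 a docking protein for receptor kinases and Pik3r1 the regulatory subunit of PI3 kinase. Socs3, which encodes a brake on cytokine and insulin signalling, tied with them at 5 and is named after its value was seen. All 5 peaks of Akt2 lay within 1 kb of a TSS, and none of the 6 of Grb10 did.

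The strongest peak among the 61 pathway genes, rank 16 of the optimal list, was assigned to Ptpn1, the phosphatase that dephosphorylates the insulin receptor. It lay in an intergenic region (chr2:167844615-167844930), 87552 bp from the TSS, with signal 229.1 and ranks of 16 in replicate 1 and 18 in replicate 2. It was followed by a peak of 97.1 inside Socs2, a brake on growth hormone signalling, 49 bp from a TSS, at ranks 237 and 1932. Next came peaks of 96.5 near Foxo6 and 85.5 in an intron of Foxo3, both forkhead factors under AKT, at ranks 444 and 773 and at 669 and 1158. The fifth, of 69.0, lay 602 bp from a TSS of Pik3r2, another regulatory subunit, at ranks 1890 and 2043. No member peak reached the level of Ptpn1.

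**Figure D5:**
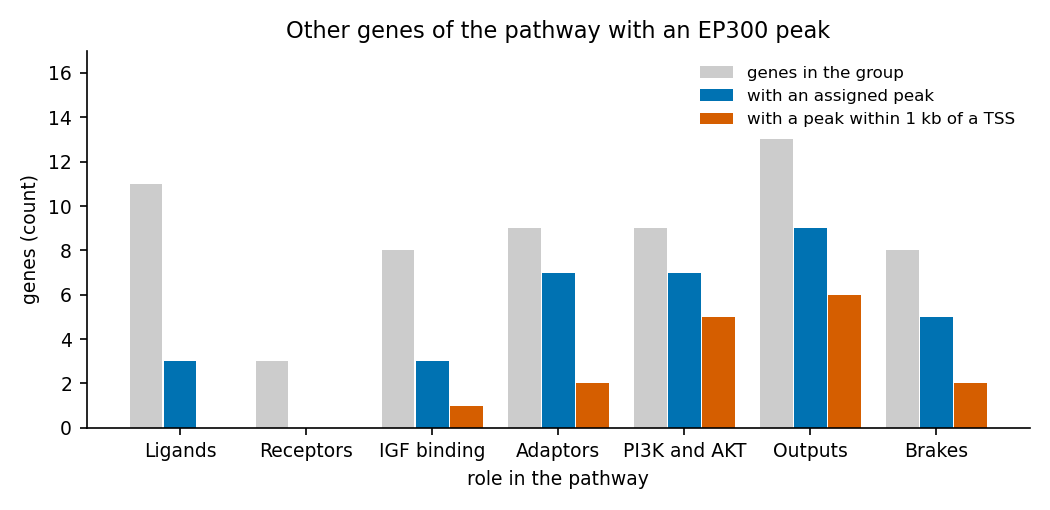
Number of genes (vertical axis, count) in each group of the 61 further pathway genes, with those that carry an assigned EP300 peak and those with a peak within 1 kb of a TSS. Adaptors and the genes of PI3 kinase and AKT have peaks at 7 of 9 genes each, and the 3 other receptors have none.

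The tissue label was checked with 33 marker genes. All 8 cardiomyocyte markers had peaks, 90 in all, and so did all 5 endothelial markers (24 peaks). Fibroblast markers had peaks at 3 of 5 genes (3 peaks), and smooth muscle, leukocyte and erythroid markers at 0 of 3 each. Hepatocyte and neuron markers each had peaks at 1 of 3. The peaks come from whole tissue, so binding in few cells and weak binding in many cannot be told apart, and which cells held the peaks of Insr, Igf1r or Igf2r was not tested.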

How the data were processed

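Peak lists of EP300 ChIP-seq were read for replicate 1, replicate 2, their pooled reads, and the optimal and conservative IDR lists derived from them. Per the file headers, replicate 1 was called with 2 control files, replicate 2 with 1 and the pooled reads with 2, on mm10. For aligner, caller and IDR cutoff, names and settings were not given in the sources used here. The authors' signal value of a peak has no stated formula. The deposited −log10 q comes from the caller. Peaks of the IDR lists also carry the authors' score, which scales the IDR and was not used. The files hold no read counts, so the depth is unknown.

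Peaks on the main chromosomes were assigned to the nearest of 54355 protein-coding TSSs of 21829 genes (GENCODE, GRCm38) within 100 kb. The rank of a member in a replicate is that of the strongest summit inside the width of the peak. Sequences were read from the GRCm38 genome. No test was run, since there is 1 group, and shares have 95% exact intervals. The assignment, matching and motif steps were tested on simulated data. The members, pathway genes, markers and motifs were chosen with earlier results of these data known. Named were all 10 members, the strongest peak of each, every peak of members with 3 or fewer, the 10 strongest member peaks, and the 5 pathway genes with most peaks and with the strongest peak. Peaks inside Igf2r that were assigned to another gene are not reported here. Any other peak described was chosen after its values were seen. Alternatives were other lists, distances, TSS sets, q thresholds, numbers of leading peaks and window widths. The tools were matplotlib 3.10.9, SciPy 1.17.1, pandas 2.3.3 and numpy 2.4.6 under Python 3.11.15.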

Additional observations from a re-analysis of the deposited data

How the results depend on the processing

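With the leading peaks of a lone replicate in place of the optimal list, the member peaks numbered 35 to 40, the members with a peak 7 to 8, the members' promoter peaks 3 to 4 and the pathway genes with a peak 36 to 38. Replicate 2 alone gave the 40 peaks and 8 genes. Counting the TSSs of all GENCODE transcripts gave 17 member peaks, of which 10 are among the 26: 11 peaks of Igf2r, 3 of Irs2 and 2 of Insr moved to non-coding genes, and Igf1r gained 5 and Igf2r 2. Requiring a leading summit in both replicates, an alternative chosen after seeing the data, left 16. The pooled list gave 5 promoter peaks. Peaks found in both replicates fell from 16 to 9 with summits within 50 bp (29.2% of all assigned peaks) and to 10 with 10000 leading peaks (27.1%). Member peaks with a −log10 q of at least 3 numbered 9. For this count, and for those of the lone replicates and the pooled list above, no share over all genes or assigned peaks was computed. Motif shares moved too. In 100 bp windows the E-box share was 15.4% (9.27% of all assigned peaks at that width), ETS 23.1% (9.16%), STAT 7.69% (3.72%), forkhead 3.85% (1.54%) and KLF and SP 0% (12.9%). In 400 bp windows TEAD was 23.1% (8.39%) and KLF and SP 26.9% (34.4%). In the lone replicates ETS was 22.5% to 22.9% (14.8% to 15.9% of all their assigned peaks) and E-box 22.5% to 28.6% (16.4% to 17.4%). There STAT was 8.57% to 12.5% (6.20% to 7.18%), forkhead 5% to 14.3% (2.93% to 3.20%) and TEAD 2.5% to 14.3% (5.28% to 5.33%). In the pooled list ETS was 20.7% (16.4%). The other 43 counts and densities of peaks and genes stayed within 1.5 times of those reported. No paired analysis was possible because there is only 1 group. Depth, which the files do not give, limits what the weak calls at Nrg1, Igf2 and Erbb2 can show.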
